A study of Homo sapiens with 12 samples.

Results

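Lysosomal hydrolases, their activators and the membrane proteins that surround them were examined in bladder carcinoma cells depleted of KMT9α. The set comprises 40 genes, chosen by symbol with no threshold on the measured values but with earlier results of these data known, of 23064 gene symbols in the deposited count tables. It holds 11 cathepsins, 11 glycosidases, 5 sulfatases, 5 hydrolases or activators of lipid and sphingolipid breakdown, 3 other hydrolases (TPP1, PPT1 and AGA), the membrane proteins LAMP1, LAMP2, SCARB2 and MCOLN1, and the transcription factor TFEB. All 40 symbols were found and all 40 passed the filter on low counts in both cell lines.

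KMT9α is the catalytic subunit of the histone methyltransferase KMT9 and is encoded by N6AMT1, and TRMT112 encodes its partner subunit KMT9β. RNAseq was conducted with CAL-29 and 5637 cells, both established human bladder carcinoma lines labelled wild type, after transfection with a control siRNA (siCtrl) or an siRNA against KMT9α (siKMT9α), and RNA was taken at day 3. Each of the 4 groups had 3 libraries, and no label says whether these came from separate cultures, so p-values measure the spread between these libraries, which may be technical. The lines also differed in transfection reagent, siRNA dose and medium, and these cannot be told apart from the line.

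Lysosomes are acidic organelles that break down proteins, sugars, sulfated glycans and lipids delivered by endocytosis and autophagy. Most of their soluble hydrolases are made as inactive precursors in the endoplasmic reticulum, receive a mannose 6-phosphate tag in the Golgi and are carried to the lysosome by mannose 6-phosphate receptors, while a proton pump keeps the lumen acidic. Many of the genes carry an E-box-type element in their promoters that TFEB and its relatives can bind, so that hydrolases, membrane proteins and pump subunits can be induced together. Loss of single members causes lysosomal storage diseases, and secreted cathepsins can cleave extracellular matrix.

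Summed over the transcript row kept for each symbol, the CAL-29 libraries held 25288045.5 to 27127011.5 estimated counts with siCtrl and 24479348.5 to 32007684.5 with siKMT9α. In 5637 cells these totals were 30737917 to 35151256.5 and 27078216.5 to 31174144.5. The biological coefficient of variation between libraries was 5.09% in CAL-29 and 3.34% in 5637 cells. Levels are given in CPM, counts scaled to a common library total within a line. N6AMT1 measured 11.4, 10.2 and 9.68 CPM with siCtrl and 2.82, 2.93 and 1.99 CPM with siKMT9α in CAL-29 cells and 13.4, 13.2 and 13.3 CPM with siCtrl and 3.75, 2.22 and 2.56 CPM with siKMT9α in 5637 cells, so the groups did not overlap, and its adjusted p was 1.33e-10 and 1.05e-15. TRMT112 was at 0.27 ± 0.06 and 0.16 ± 0.04 on the log2 scale, not past the threshold used here. The 7 epithelial markers summed to 13012 to 13669 CPM with siCtrl and 6178 to 6325 CPM with siKMT9α in CAL-29 cells, and to 8617 to 9045 and 5895 to 6105 CPM in 5637 cells. In 5637 cells the 4 fibroblast markers, mostly THY1, summed to 55.6 to 62.8 CPM with siCtrl and 26.6 to 30.9 CPM with siKMT9α. PTPRC, CD3E and DCN were at or near 0 in all 12 libraries. The part of these marker changes in the results was not tested.

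With siCtrl, the levels of the 40 genes differed widely within a line, and so did their order between the lines. On a scale of CPM per kilobase of the reference transcript, with all 12 libraries scaled together, the highest members in CAL-29 cells were PSAP, the precursor of the saposins, at 1530.0 ± 104 (SD, n = 3), the aspartic protease CTSD at 347 ± 22.9, and the serine carboxypeptidase CTSA at 188 ± 8.91, which differed from LAMP1 at 177 ± 7.64 by less than the sum of their SDs. In 5637 cells CTSD stood at 323 ± 14.1 and PSAP at 308 ± 7.25, neighbours in the order that differed by less than the sum of their SDs, followed by the dipeptidyl peptidase CTSC at 175 ± 3.04. The lowest in CAL-29 were CTSK at 1.76 ± 0.541, CTSF at 2.97 ± 0.310 and CTSS at 4.36 ± 0.699, and the lowest in 5637 were CTSK at 1.25 ± 0.0842, TFEB at 2.32 ± 0.354 and ARSB at 3.20 ± 0.0369. The reference transcript was not matched to the transcript row counted, so these levels and their order are approximate. In the joint model of all libraries, 28 of the 40 members (70%) differed between the siCtrl groups at p below 1e-06, beside 59.8% of all 15395 genes tested, and 37 did at an adjusted p below 0.05, beside 85.4%. Of these, 10 were higher in 5637 cells, where 30.7% of all genes were, and 18 were higher in CAL-29 cells, where 29.0% of all genes were. The acid ceramidase gene ASAH1 (6.45-fold), the heparan and dermatan sulfate sulfatase gene IDS (5.73-fold) and PSAP (4.97-fold) were higher in CAL-29 cells. CTSF (6.69-fold), CTSC (5.58-fold) and the beta-glucuronidase gene GUSB (3.49-fold) were higher in 5637 cells.

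Upon siKMT9α treatment, members of the set were called in both directions. In CAL-29 cells 10 members were upregulated and 10 downregulated at p below 1e-06, the threshold of the study, so 50% were called beside 30.0% of the 14673 genes tested (15.0% up and 15.0% down). In 5637 cells 4 were upregulated and 16 downregulated, again 50%, beside 35.6% of 14335 genes tested (18.0% up and 17.6% down). At an adjusted p below 0.05 the counts were 13 up and 19 down in CAL-29 cells, where 34.3% and 35.2% of all genes passed, and 10 up and 23 down in 5637 cells, where 35.1% and 35.6% passed, or 69.5% and 70.7% of all genes in either direction. The median log2 fold change of the 40 genes was -0.11 in CAL-29 and -0.22 in 5637 cells, beside -0.02 and -0.01 over all genes tested. The siCtrl and siKMT9α libraries did not overlap for 33 members in CAL-29 cells (72.3% of all genes) and for 34 in 5637 cells (72.4%). In bulk RNA, fewer cells of a kind and less RNA per cell cannot be told apart. Leaving out 1 library lowered the count of downregulated members in CAL-29 cells to 6 without siCtrl library 2, to 6 without siKMT9α library 1 and to 5 without siKMT9α library 3, and lowered the count of upregulated members in 5637 cells to 2 without siKMT9α library 3. The share of all genes called in these smaller fits is not given, so these falls cannot be set against it.

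Calls in both lines were available for each member. GAA, HEXA, ARSA, IDS, ASAH1, TPP1, LAMP2 and SCARB2, 8 of 40, were downregulated in both lines, where 8.49% of the 13674 genes tested in both were. CTSD, FUCA1 and NEU1, 3 of 40, were upregulated in both, beside 8.45% of all genes. With all transcripts of a symbol summed, CTSD and FUCA1 lost their 5637 call, at log2 fold changes of 0.27 and 0.43. CTSD also lost it in the joint model (0.27), and FUCA1 with total-count scaling (0.38) or upper quartile scaling (0.39). Of the downregulated members, GAA and TPP1 lost their CAL-29 call with summed transcripts (-0.64 and -0.37) and with total-count scaling (-0.56 and -0.30). CTSD, FUCA1 and TPP1 have 1 transcript row each, so summing left their own counts unchanged and altered only the fit over all genes. PPT1 was the 1 member called in opposite directions, which 1.76% of all genes were. A further 12 members passed the threshold in neither line, namely CTSB, CTSK, CTSV, GLB1, NAGLU, MANBA, GALNS, SGSH, LIPA, AGA, LAMP1 and MCOLN1. The share of all genes called in neither line is not given, so this count cannot be set against it.

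**Figure D1:**
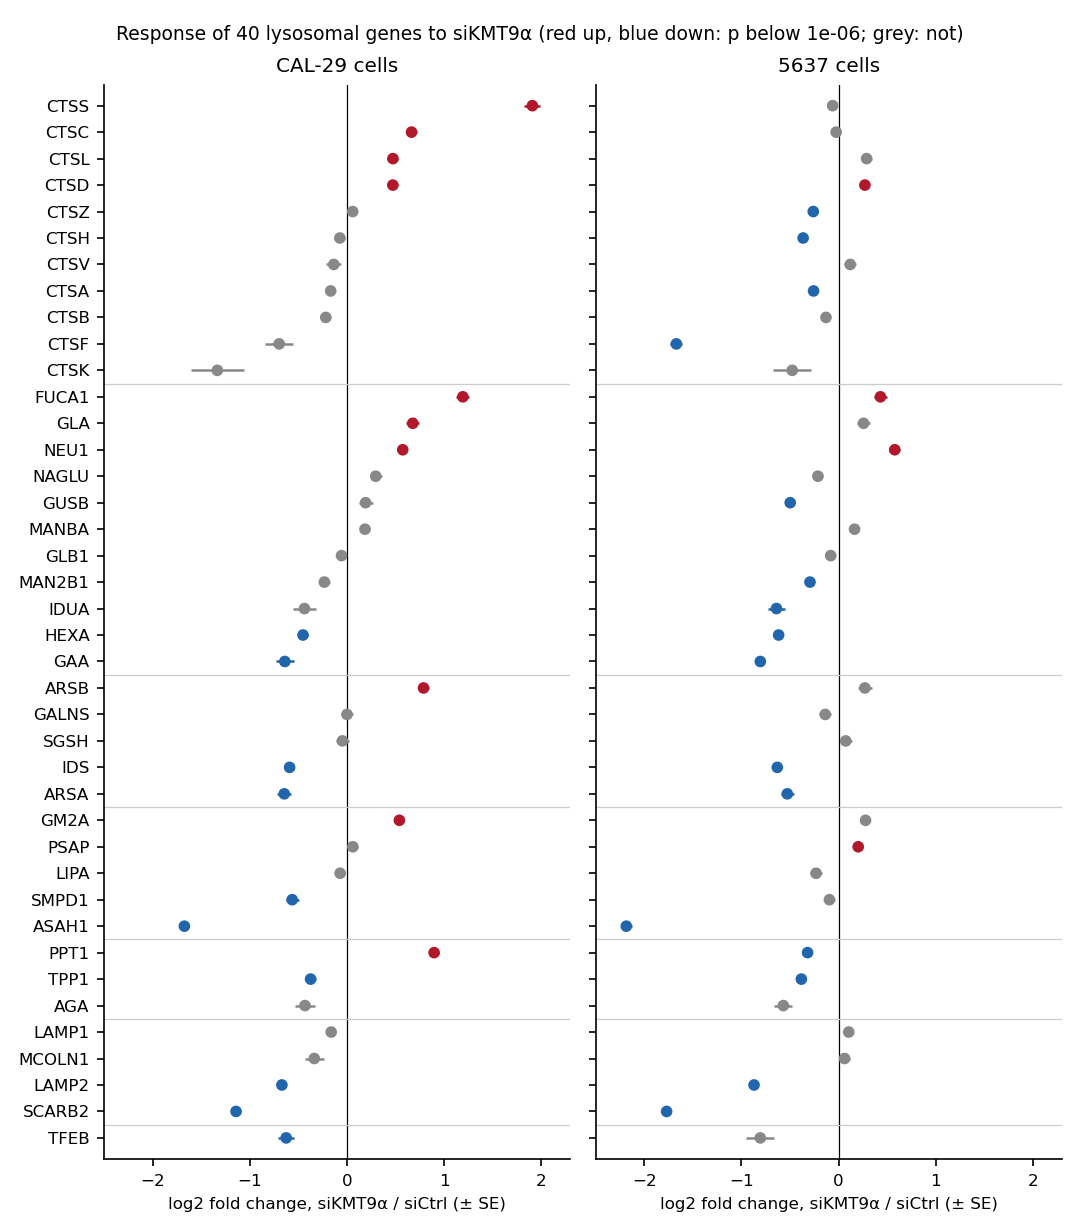
Log2 fold change of siKMT9α over siCtrl (point) with its SE (bar) for the 40 genes in CAL-29 cells (left) and 5637 cells (right), grouped from the top into cathepsins, glycosidases, sulfatases, lipid and sphingolipid hydrolases and activators, other hydrolases, membrane proteins and TFEB. Red and blue points passed p below 1e-06 upwards and downwards and grey points did not, and ASAH1, at -1.67 and -2.19, is the lowest point in both panels.

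Lipid and sphingolipid breakdown held ASAH1, the member with the greatest fall in both lines. ASAH1 encodes acid ceramidase, which splits ceramide into sphingosine and a fatty acid. In CAL-29 cells its libraries measured 416, 394 and 390.1 CPM with siCtrl and 122, 128 and 126 CPM with siKMT9α. Those of 5637 cells measured 60.0, 57.1 and 60.3 CPM with siCtrl and 12.3, 14.1 and 12.6 CPM with siKMT9α. The groups lay far apart in both lines, with 31.3% of the siCtrl mean left in CAL-29 and 22.0% in 5637 cells. Its log2 fold change was -1.67 ± 0.05 (SE, adjusted p = 3.81e-17) in CAL-29 cells and -2.19 ± 0.06 (adjusted p = 3.82e-23) in 5637 cells. SMPD1, the acid sphingomyelinase that produces ceramide from sphingomyelin, measured 34.8, 34.7 and 35.5 CPM with siCtrl and 21.7, 24.6 and 24.7 CPM with siKMT9α in CAL-29 cells, where it was downregulated (log2 fold change -0.56 ± 0.07 SE, adjusted p = 2.80e-07). In 5637 cells SMPD1 did not pass the threshold, at -0.09 ± 0.05 (adjusted p = 0.118).

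GM2A encodes the activator protein that presents ganglioside GM2 to beta-hexosaminidase. It measured 111, 108 and 103 CPM with siCtrl and 152, 155 and 163 CPM with siKMT9α in CAL-29 cells and was upregulated there (log2 fold change 0.54 ± 0.05 SE, adjusted p = 3.29e-09). Its log2 fold change in 5637 cells was 0.28 ± 0.05, adjusted p = 8.36e-06, short of the threshold. PSAP measured 4579, 4388 and 3992 CPM with siCtrl and 4495, 4511 and 4502 CPM with siKMT9α in CAL-29 cells, where the groups overlapped and the log2 fold change was 0.06 ± 0.06. In 5637 cells PSAP measured 820.1, 816 and 852 CPM with siCtrl and 946, 934 and 981 CPM with siKMT9α and rose by 0.20 on the log2 scale (SE 0.03, adjusted p = 1.11e-06). LIPA, the acid lipase of cholesteryl esters and triglycerides, passed in neither line, at -0.07 ± 0.05 and -0.23 ± 0.06. The call of SMPD1 in CAL-29 cells was lost without siCtrl library 2 (-0.57) and without siKMT9α library 1 (-0.50) or 3 (-0.59). The call of PSAP in 5637 cells was lost without siCtrl library 1 or 2 or siKMT9α library 2 or 3, at 0.20, 0.19, 0.22 and 0.18. That call was also lost with summed transcripts (0.20), total-count scaling (0.15), upper quartile scaling (0.16) and the joint model (0.20).

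Of the 4 membrane proteins, SCARB2 and LAMP2 were downregulated in both lines, and LAMP1 and MCOLN1 passed in neither. SCARB2 (also called LIMP-2; GRCh37 chr4:77079890-77155689, minus strand) is the receptor that carries glucocerebrosidase to the lysosome without a mannose 6-phosphate tag. In CAL-29 cells its libraries measured 281, 268 and 269 CPM with siCtrl and 119, 123 and 128 CPM with siKMT9α. Those of 5637 cells measured 95.0, 89.4 and 91.2 CPM with siCtrl and 25.9, 29.1 and 25.8 CPM with siKMT9α. Every siKMT9α library was below every siCtrl library, with 45.3% and 29.3% of the siCtrl mean left. Its log2 fold change was -1.14 ± 0.05 (adjusted p = 1.39e-14) in CAL-29 and -1.77 ± 0.05 (adjusted p = 7.82e-23) in 5637 cells.

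LAMP2 (GRCh37 chrX:119560003-119603220, minus strand) encodes an abundant protein of the lysosomal membrane whose isoforms differ in their last exon. It measured 318, 313 and 297 CPM with siCtrl and 191, 199 and 194 CPM with siKMT9α in CAL-29 cells and 103, 96.6 and 97.8 CPM with siCtrl and 52.8, 53.3 and 56.3 CPM with siKMT9α in 5637 cells. The groups separated in both lines, with log2 fold changes of -0.67 ± 0.05 (adjusted p = 5.79e-11) in CAL-29 and -0.87 ± 0.04 (adjusted p = 3.29e-17) in 5637 cells. These values are from the row with the most counts, that of the isoform B transcript. The rows of the other two isoforms, which share most exons and therefore reads with it, gave log2 ratios of the group means of -0.48 and -0.49 in CAL-29, and of -0.49 and -0.55 in 5637 cells. LAMP1, the companion membrane protein, showed smaller differences, of -0.16 ± 0.05 (adjusted p = 0.00567) in CAL-29 and 0.10 ± 0.03 (adjusted p = 0.00302) in 5637 cells, and its libraries measured 517, 486 and 473 CPM with siCtrl and 427, 441 and 450.0 CPM with siKMT9α in the former. The calcium channel gene MCOLN1 was at -0.34 ± 0.10 and 0.06 ± 0.06, neither past the threshold.

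**Figure D2:**
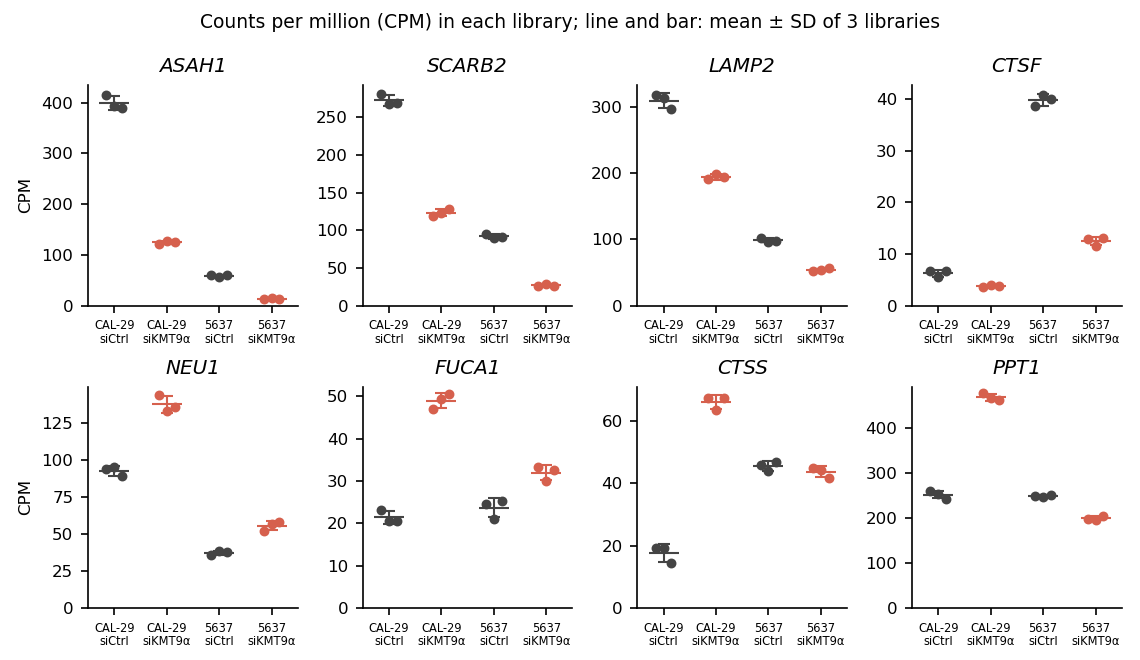
CPM of 8 members in each library (points; grey siCtrl, red siKMT9α), with the mean ± SD of 3 libraries, and with the lines scaled separately. ASAH1, SCARB2 and LAMP2 were lower with siKMT9α in both lines and NEU1 and FUCA1 higher in both, while the mean of CTSS went from 17.6 to 66.1 CPM in CAL-29 cells, and PPT1 was up in CAL-29 and down in 5637 cells.

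The 3′ UTR is a region where an siRNA can pair with transcripts other than its target, through positions 2 to 8 of its guide strand. The matching heptamer of siKMT9α#1, the siRNA that the study's text names for RNAseq, reads ACATTCA, while the deposited tables call the siRNA si270 and no source used here matches the names. On its sense strand, the heptamer was found in the longest annotated 3′ UTR of 7 of the 40 members (17.5%), beside 15.4% of the 12395 genes with such a UTR among those tested in both lines. The 7 were ASAH1, LAMP2, CTSZ, CTSC, CTSS, GM2A and CTSK. ASAH1 and LAMP2 were downregulated in both lines and CTSZ in 5637 cells, while CTSC, CTSS and GM2A were upregulated in CAL-29 cells and CTSK was not called. SCARB2, GAA, HEXA, ARSA, IDS and TPP1, the other members downregulated in both lines, hold no match in theirs. In the shortest annotated 3′ UTRs, 1 member (2.5%, CTSK) held it, beside 5.98% of genes. Over all genes, the median log2 fold change was -0.26 in CAL-29 and -0.31 in 5637 cells with the heptamer and 0.05 and 0.03 without it, with no adjustment for UTR length. The part of these matches in the members' values was not tested. Whether the transcript row used for a member holds its match was not checked. For CTSC the match is at base 5142 of a UTR of 5622 bases, while the whole reference transcript has 1870. For CTSZ the matches are at bases 1673 and 6584 of a UTR of 9963 bases, while the reference transcript has 1502. The rows of these members may therefore lack the match. Windows of 30 bases around the match follow for 4 members that moved in different directions, with the heptamer in capitals and coordinates on GRCh37.
LAMP2 (chrX:119560475-119560504, minus strand): gaaattcagatACATTCAaaattatgggtt
CTSC (chr11:88054441-88054470, minus strand): tctgatttttcACATTCAacaaattgcaac
CTSS (chr1:150702745-150702774, minus strand): tactataaaaaACATTCAagttcaactgtt
GM2A (chr5:150649347-150649376, plus strand): tccaccgtggtACATTCAgtcctctcaccg

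Among the 11 cathepsins, 4 were upregulated and none downregulated in CAL-29 cells (CTSC, CTSD, CTSL and CTSS), so 36.4% were called beside 30.0% of all genes. In 5637 cells 1 was upregulated (CTSD) and 4 downregulated (CTSA, CTSF, CTSH and CTSZ), or 45.5% beside 35.6% of all genes. For the downward direction in CAL-29 cells, edgeR gave 0 of 11 at p below 1e-06 and 4 at an unadjusted p below 0.05, and DESeq2 gave 0 at the same threshold. CTSS (GRCh37 chr1:150702555-150738433, minus strand), a cysteine protease best known for antigen processing, measured 19.2, 19.4 and 14.4 CPM with siCtrl and 67.5, 63.5 and 67.3 CPM with siKMT9α in CAL-29 cells. The groups were far apart, a 3.75-fold rise of the mean (log2 fold change 1.91 ± 0.08 SE, adjusted p = 2.22e-14). In 5637 cells CTSS measured 45.9, 44.0 and 46.9 CPM with siCtrl and 45.1, 44.3 and 41.8 CPM with siKMT9α, and the groups overlapped (-0.06 ± 0.05, adjusted p = 0.257). The 6 markers of leukocytes, a cell type rich in this protease, did not move together in CAL-29 cells. Their sum ran from 13.8 to 16.0 CPM with siCtrl and from 5.16 to 5.97 CPM with siKMT9α, and CSF1R, with a mean of 12.1 CPM against 1.24 CPM, accounted for the drop. CD14 went the other way without overlap, from a mean of 1.65 to 3.10 CPM (log2 fold change 0.91, not past the threshold), ITGAM overlapped between the groups, and PTPRC and CD3E were at or near 0. The part of these markers in the CTSS values was not tested.

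CTSC, which activates serine proteases of granules, measured 58.9, 64.1 and 57.2 CPM with siCtrl and 93.3, 96.6 and 95.6 CPM with siKMT9α in CAL-29 cells and was upregulated (log2 fold change 0.66 ± 0.05 SE, adjusted p = 4.34e-10). In 5637 cells, where its siCtrl level was higher, it measured 313, 323 and 324 CPM with siCtrl and 307, 318 and 319 CPM with siKMT9α, with overlapping groups. These values come from the full-length transcript. The 2 rows of shorter transcripts gave log2 ratios of the means of 0.36 and 0.37 in CAL-29, and of 0.30 and 0.32 in 5637 cells, so that the sum of the 3 rows turned the sign in 5637 cells to 0.14. CTSD, the main aspartic protease of the lysosome, measured 780.4, 738 and 682 CPM with siCtrl and 1037, 993 and 1020.0 CPM with siKMT9α in CAL-29 cells and 643, 628 and 683 CPM with siCtrl and 794, 779 and 785 CPM with siKMT9α in 5637 cells. It was upregulated in both lines without overlap, by 0.47 ± 0.05 (adjusted p = 1.09e-07) and 0.27 ± 0.03 (adjusted p = 1.37e-08). CTSL, a broad endopeptidase, was upregulated in CAL-29 cells (log2 fold change 0.47 ± 0.06 SE, adjusted p = 2.33e-07) and reached 0.29 ± 0.05 in 5637 cells (adjusted p = 1.62e-05), short of the threshold.

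CTSF (GRCh37 chr11:66330935-66336350, minus strand), a cysteine protease that trims the invariant chain, was the cathepsin that fell furthest in 5637 cells, where it measured 38.6, 40.8 and 39.9 CPM with siCtrl and 12.8, 11.6 and 13.0 CPM with siKMT9α and kept 31.4% of its siCtrl mean (log2 fold change -1.67 ± 0.06 SE, adjusted p = 8.76e-20). In CAL-29 cells it was a low gene, with 6.61, 5.47 and 6.61 CPM with siCtrl and 3.70, 4.06 and 3.74 CPM with siKMT9α. The groups did not overlap there either, but the log2 fold change of -0.70 ± 0.14 did not pass (adjusted p = 1.78e-04). The carboxypeptidases CTSA and CTSZ and the aminopeptidase CTSH fell by smaller amounts in 5637 cells, with log2 fold changes of -0.26 ± 0.03, -0.26 ± 0.04 and -0.37 ± 0.04, and were at -0.17 ± 0.05, 0.06 ± 0.05 and -0.07 ± 0.05 in CAL-29 cells. In GRCh37, 31.7% of the CTSZ exon bases and 21.5% of the CTSA exon bases lie opposite exons of another gene, and whether the counting used strand is not given in the sources used here. CTSB and CTSV, relatives of CTSL in the papain family, passed in neither line, at -0.22 ± 0.05 and -0.14 ± 0.08 in CAL-29 and -0.13 ± 0.03 and 0.12 ± 0.06 in 5637 cells. CTSK, known from osteoclasts, was a low gene. In CAL-29 cells it measured 3.998, 2.35 and 2.49 CPM with siCtrl and 1.62, 0.823 and 1.03 CPM with siKMT9α. The groups did not overlap and 39.4% of the siCtrl mean was left, but the log2 fold change of -1.34 ± 0.27 did not pass (adjusted p = 1.89e-04). It did pass with no filter on low counts (-1.33) and with the replicate block (-1.35). In 5637 cells CTSK was at -0.48 ± 0.19.

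Several cathepsin calls were lost when a library was left out, and the log2 fold change without that library is given. For CTSD and CTSL in CAL-29 cells, both at 0.47 with all libraries, these values stayed between 0.46 and 0.48. In CAL-29 cells the call of CTSD was lost without siCtrl library 2, at 0.48, and without siKMT9α library 3, at 0.47. That of CTSL was lost without siCtrl library 2, at 0.46, and without siKMT9α library 2 or 3, at 0.46 and 0.48. In 5637 cells the call of CTSA was lost without siKMT9α library 3, at -0.25, and that of CTSZ without siCtrl library 3 or siKMT9α library 3, at -0.23 and -0.26. CTSL passed in 5637 cells without siCtrl library 2, at 0.35.

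The 11 glycosidases split in both lines, with 3 up (GLA, FUCA1 and NEU1) and 2 down (GAA and HEXA) in CAL-29 cells, and 2 up (FUCA1 and NEU1) and 5 down (GAA, GUSB, HEXA, MAN2B1 and IDUA) in 5637 cells. These counts are 45.5% beside 30.0% of all genes in CAL-29 and 63.6% beside 35.6% in 5637 cells. FUCA1, which removes fucose from glycoproteins, measured 23.1, 20.5 and 20.6 CPM with siCtrl and 46.9, 49.4 and 50.4 CPM with siKMT9α in CAL-29 cells, where it rose 2.28-fold (log2 fold change 1.19 ± 0.07 SE, adjusted p = 1.35e-12). The 5637 libraries measured 24.7, 21.1 and 25.2 CPM with siCtrl and 33.2, 30.0 and 32.6 CPM with siKMT9α (log2 fold change 0.43 ± 0.06 SE, adjusted p = 8.80e-07). The sialidase gene NEU1 measured 93.9, 95.1 and 89.0 CPM with siCtrl and 144, 133 and 136 CPM with siKMT9α in CAL-29 cells and 35.5, 38.2 and 38.0 CPM with siCtrl and 52.0, 56.6 and 58.2 CPM with siKMT9α in 5637 cells. It rose in both, by 0.57 ± 0.05 (adjusted p = 1.58e-09) and 0.58 ± 0.05 (adjusted p = 2.78e-11). GLA, the alpha-galactosidase that is deficient in Fabry disease, was upregulated in CAL-29 cells (log2 fold change 0.68 ± 0.06 SE, adjusted p = 9.10e-09) and stood at 0.26 ± 0.07 in 5637 cells, short of the threshold.

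GAA, the acid alpha-glucosidase that degrades glycogen, measured 39.8, 38.1 and 36.4 CPM with siCtrl and 19.9, 25.2 and 28.5 CPM with siKMT9α in CAL-29 cells and 109, 108 and 112 CPM with siCtrl and 65.9, 64.3 and 58.3 CPM with siKMT9α in 5637 cells. The siKMT9α libraries of CAL-29 cells spread more than their controls but stayed below them (log2 fold change -0.64 ± 0.09 SE, adjusted p = 2.72e-06), and the groups were far apart in 5637 cells (log2 fold change -0.81 ± 0.04 SE, adjusted p = 4.06e-16). HEXA, the alpha subunit of beta-hexosaminidase A, measured 163, 159 and 148 CPM with siCtrl and 116, 116 and 111 CPM with siKMT9α in CAL-29 cells and 104, 106 and 108 CPM with siCtrl and 67.8, 69.5 and 69.7 CPM with siKMT9α in 5637 cells. It was downregulated in both, with log2 fold changes of -0.45 ± 0.05 (adjusted p = 4.53e-08) and -0.62 ± 0.04 (adjusted p = 1.17e-14). GUSB was downregulated in 5637 cells, with 84.3, 81.6 and 87.6 CPM with siCtrl and 59.4, 61.9 and 58.3 CPM with siKMT9α (log2 fold change -0.50 ± 0.04 SE, adjusted p = 1.25e-11), while in CAL-29 cells it measured 27.9, 25.1 and 23.3 CPM with siCtrl and 29.3, 29.7 and 28.0 CPM with siKMT9α and stood at 0.19 ± 0.07 (adjusted p = 0.0252). The alpha-mannosidase gene MAN2B1 and the alpha-iduronidase gene IDUA fell in 5637 cells, with log2 fold changes of -0.29 ± 0.04 and -0.64 ± 0.08, and were at -0.23 ± 0.05 and -0.44 ± 0.11 in CAL-29 cells. The beta-galactosidase GLB1, the N-acetylglucosaminidase NAGLU and the beta-mannosidase MANBA were called in neither line, and their log2 fold changes ran from -0.06 to 0.30 in CAL-29 and from -0.21 to 0.16 in 5637 cells.

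Log2 fold changes without a library stand in brackets here. With 1 library left out, GAA lost its CAL-29 call without siCtrl library 2 (-0.63) or siKMT9α library 1 (-0.50) or 2 (-0.66). HEXA lost its CAL-29 call without siKMT9α library 3 (-0.43). In 5637 cells FUCA1 lost its call without siCtrl library 2 (0.36) or siKMT9α library 1 (0.40) or 3 (0.42). MAN2B1 lost it without siCtrl library 3 (-0.25) or siKMT9α library 2 (-0.26) or 3 (-0.29), and IDUA without siKMT9α library 3 (-0.55). MANBA gained a call in CAL-29 cells without siCtrl library 1 (0.26).

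Of the 5 sulfatases, ARSA and IDS were downregulated in both lines and ARSB was upregulated in CAL-29 cells, beside 30.0% of all genes called in CAL-29 and 35.6% in 5637 cells. ARSA, which desulfates sulfatide, measured 30.1, 27.4 and 27.6 CPM with siCtrl and 18.5, 18.2 and 17.6 CPM with siKMT9α in CAL-29 cells and 23.6, 21.2 and 23.5 CPM with siCtrl and 16.2, 15.3 and 15.9 CPM with siKMT9α in 5637 cells, with log2 fold changes of -0.65 ± 0.07 (adjusted p = 9.22e-08) and -0.53 ± 0.07 (adjusted p = 4.99e-08). IDS measured 376, 363 and 374 CPM with siCtrl and 252, 243 and 244 CPM with siKMT9α in CAL-29 cells and 64.0, 60.7 and 60.8 CPM with siCtrl and 41.3, 37.1 and 41.3 CPM with siKMT9α in 5637 cells, so that 66.4% and 64.5% of the siCtrl mean was left (log2 fold changes -0.59 ± 0.05 and -0.63 ± 0.05). Of the annotated IDS exon bases, 75.9% also belong to other gene models on the same strand, so its counts are uncertain. Such same-strand models also cover 27.3% of CTSD, 21.2% of MAN2B1, 12.9% of NAGLU and 11.6% of TPP1, and opposite-strand models cover 24.0% of CTSD, 14.1% of HEXA and 13.2% of IDUA. ARSB, the arylsulfatase of dermatan sulfate, measured 34.2, 38.5 and 33.5 CPM with siCtrl and 61.9, 60.7 and 60.7 CPM with siKMT9α in CAL-29 cells (log2 fold change 0.79 ± 0.06 SE, adjusted p = 2.56e-10) and stood at 0.27 ± 0.07 in 5637 cells (adjusted p = 0.00104), short of the threshold. GALNS, which desulfates keratan sulfate, and SGSH, the heparan N-sulfatase, passed in neither line, at -0.14 ± 0.06 and 0.07 ± 0.06 in 5637 cells. ARSA lost its CAL-29 call without siKMT9α library 3, at -0.62.

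Among the remaining hydrolases, the 2 lines parted over PPT1 (GRCh37 chr1:40538382-40562932, minus strand), the palmitoyl-protein thioesterase that strips fatty acids from proteins. It measured 259.5, 252 and 243 CPM with siCtrl and 477, 466 and 462 CPM with siKMT9α in CAL-29 cells, where it was upregulated 1.86-fold (log2 fold change 0.90 ± 0.05 SE, adjusted p = 5.82e-13). In 5637 cells, from a siCtrl level within 1.04-fold, it measured 249, 247 and 251 CPM with siCtrl and 198, 196 and 205 CPM with siKMT9α and was downregulated (log2 fold change -0.32 ± 0.03 SE, adjusted p = 6.37e-10). TPP1, a tripeptidyl peptidase, was downregulated in both lines, at -0.38 ± 0.05 (adjusted p = 2.73e-06) in CAL-29 and -0.38 ± 0.04 (adjusted p = 1.53e-10) in 5637 cells. The aspartylglucosaminidase gene AGA was at -0.43 ± 0.10 and -0.57 ± 0.09, neither past the threshold, with an adjusted p of 2.91e-06 in 5637 cells. The CAL-29 call of TPP1 was lost without siCtrl library 2 (-0.38) and without siKMT9α library 1, 2 or 3 (-0.36, -0.35 and -0.40). AGA passed in 5637 cells without siKMT9α library 3 (-0.68), with DESeq2 (-0.57), with no filter (-0.56), with the replicate block (-0.57) and with total-count (-0.62) or upper quartile scaling (-0.61).

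TFEB, the transcription factor that can induce lysosomal genes, was a low transcript with 18.7, 19.4 and 19.3 CPM with siCtrl and 12.1, 13.0 and 12.1 CPM with siKMT9α in CAL-29 cells and 4.35, 5.94 and 5.61 CPM with siCtrl and 2.92, 3.40 and 2.79 CPM with siKMT9α in 5637 cells. All siKMT9α libraries lay below their controls. It was downregulated in CAL-29 cells (log2 fold change -0.63 ± 0.08 SE, adjusted p = 9.16e-07), and in 5637 cells the log2 fold change of -0.81 ± 0.14 was short of the threshold (adjusted p = 1.12e-05). The CAL-29 call was lost without siCtrl library 2 (-0.61) or 3 (-0.61) and without siKMT9α library 1 (-0.61), 2 (-0.66) or 3 (-0.60), while 5637 cells passed without siCtrl library 1 (-0.93). Among its relatives, TFE3 measured 50.0, 50.3 and 51.9 CPM with siCtrl and 43.2, 43.4 and 43.3 CPM with siKMT9α in CAL-29 cells (-0.23 ± 0.05, not past the threshold) and 42.3, 40.3 and 40.1 CPM with siCtrl and 51.3, 49.3 and 52.0 CPM with siKMT9α in 5637 cells, where it was upregulated (log2 fold change 0.32 ± 0.05 SE, adjusted p = 7.11e-07). TFE3 lost that call without siCtrl library 2 (0.31) or 3 (0.30) or siKMT9α library 3 (0.30). MITF passed in neither line, at 0.22 ± 0.07 and -0.01 ± 0.18.

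The E-box that TFEB and its relatives bind can be read in the promoters. Of the 40 members, 29 have an entry in the RefSeq promoter table on GRCh38.p14, whose 250 bases before the start were searched on both strands. The heptamer TCACGTG was found in 9 of the 29 (31.0%), beside 3.31% of all 35116 promoters, and the shorter CACGTG, which it contains, in the same 9, beside 6.34%. The units differ, because members were counted by gene, with a match in any promoter entry, and the background by entry. A gene with several entries has more chances of a match, so the shares are not like for like. The 9 were ARSB, CTSA, CTSD, CTSF, GAA, GALNS, LAMP1, MCOLN1 and NEU1. Of these, CTSD and NEU1 were upregulated in both lines and ARSB in CAL-29 cells, GAA was downregulated in both and CTSA and CTSF in 5637 cells, and GALNS, LAMP1 and MCOLN1 were called in neither. The 250 bases before the start are shown for 4 of them with different responses, 2 of which rose, 1 of which fell and 1 of which was not called, with TCACGTG or its reverse complement in capitals, including 2 such stretches for GAA and 5 for LAMP1. Where a match on one strand overlaps one on the other, the capitals cover both. A match is a sequence and does not show that a factor was bound.
CTSD (chr11:1763928-1764177, minus strand): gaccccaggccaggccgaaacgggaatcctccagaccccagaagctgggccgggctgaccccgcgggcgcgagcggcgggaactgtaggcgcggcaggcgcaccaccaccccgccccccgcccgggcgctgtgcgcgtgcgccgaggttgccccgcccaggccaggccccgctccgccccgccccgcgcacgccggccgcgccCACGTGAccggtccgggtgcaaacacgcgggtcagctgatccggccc
NEU1 (chr6:31862822-31863071, minus strand): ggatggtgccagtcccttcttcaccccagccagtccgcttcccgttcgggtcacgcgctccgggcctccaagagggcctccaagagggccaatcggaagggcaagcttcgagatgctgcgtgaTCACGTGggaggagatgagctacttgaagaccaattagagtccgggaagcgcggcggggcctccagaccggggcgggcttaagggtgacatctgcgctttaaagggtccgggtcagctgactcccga
GAA (chr17:80101331-80101580, plus strand): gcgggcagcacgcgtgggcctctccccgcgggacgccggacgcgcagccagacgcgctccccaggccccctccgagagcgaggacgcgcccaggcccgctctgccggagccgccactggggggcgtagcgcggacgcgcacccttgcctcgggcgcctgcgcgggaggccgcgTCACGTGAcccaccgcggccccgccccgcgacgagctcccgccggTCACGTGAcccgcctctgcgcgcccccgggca
LAMP1 (chr13:113296989-113297238, plus strand): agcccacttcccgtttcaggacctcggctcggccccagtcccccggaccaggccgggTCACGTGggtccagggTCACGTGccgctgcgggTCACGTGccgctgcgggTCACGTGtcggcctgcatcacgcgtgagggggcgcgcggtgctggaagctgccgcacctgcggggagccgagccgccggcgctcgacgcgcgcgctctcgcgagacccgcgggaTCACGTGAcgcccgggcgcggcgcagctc

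The difference between the lines was tested directly, as the siKMT9α response in 5637 minus that in CAL-29 cells in a joint model of the 12 libraries. For 9 of 40 members (22.5%) it passed p below 1e-06, beside 15.7% of 15395 genes, and all 9 were lower in 5637 cells, where 8.62% of all genes were, against 0 members and 7.11% of genes that were higher. In that upward direction 5 members had an unadjusted p below 0.05 in edgeR, and DESeq2 gave 2 past the threshold, SMPD1 and LAMP1. At an adjusted p below 0.05, 23 members differed, beside 50.4% of genes. The median difference over the 40 was -0.18, beside -0.04 over all genes. The greatest was that of CTSS, -1.99 ± 0.10 (adjusted p = 3.91e-16), followed by PPT1 at -1.23 ± 0.05 (adjusted p = 5.80e-17). CTSC at -0.71 ± 0.06, GUSB at -0.71 ± 0.08, FUCA1 at -0.78 ± 0.10 and NAGLU at -0.52 ± 0.07 had the higher value in CAL-29 cells as well. For NEU1 the difference was -0.01 ± 0.07 (adjusted p = 0.913). CTSF at -0.99 ± 0.13, SCARB2 at -0.64 ± 0.07 and ASAH1 at -0.53 ± 0.07 were lower with siKMT9α in both lines and more so in 5637 cells. The difference for CTSF was lost without CAL-29 siKMT9α library 2, at -0.95, and that for ASAH1 without 5637 siKMT9α library 3, at -0.51.

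Other genes of the same organelle were followed as 7 lists with 150 symbols, of which 140 were tested in CAL-29 and 135 in 5637 cells. In CAL-29 cells 11 were upregulated and 32 downregulated (30.7% called, beside 30.0% of all genes), and in 5637 cells 21 and 42 (46.7%, beside 35.6%), with median log2 fold changes of -0.11 and -0.10. Of the further lysosomal hydrolases and activators, 1 of 24 was up and 8 were down in CAL-29 cells (37.5% called, beside 30.0% of all genes). In 5637 cells 1 of 23 was up and 12 were down (56.5%, beside 35.6%). The galactosylceramidase gene GALC measured 32.1, 35.4 and 30.7 CPM with siCtrl and 15.2, 16.3 and 16.5 CPM with siKMT9α in CAL-29 cells and 13.1, 14.2 and 13.5 CPM with siCtrl and 5.96, 4.54 and 5.45 CPM with siKMT9α in 5637 cells, and its log2 fold changes were -1.03 ± 0.08 and -1.36 ± 0.10. Without 1 library the count of upregulated genes over the 7 lists in CAL-29 cells was 17 without siCtrl library 1, 6 without siCtrl library 2, 7 without siKMT9α library 2 and 6 without siKMT9α library 3, and that of downregulated genes was 21 without siCtrl library 2 and 19 without siKMT9α library 3. The share of all genes called in these smaller fits is not given. The asparaginyl endopeptidase LGMN, which processes cathepsins, passed in neither line (-0.19 ± 0.06 and 0.10 ± 0.04).

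Genes of tagging and sorting were also called in both directions. In CAL-29 cells 2 of 16 were up and 2 down, or 25% beside 30.0% of all genes. In 5637 cells 4 were up and 3 down, or 43.8% beside 35.6%. The 2 mannose 6-phosphate receptors parted in CAL-29 cells and were both upregulated in 5637 cells. M6PR was upregulated in both lines (0.34 ± 0.04 and 0.34 ± 0.03), whereas IGF2R measured 1127, 1030.2 and 939 CPM with siCtrl and 675, 679 and 665 CPM with siKMT9α in CAL-29 cells, where it fell (log2 fold change -0.62 ± 0.06 SE, adjusted p = 6.09e-09), and 554, 578 and 547 CPM with siCtrl and 684, 617 and 671 CPM with siKMT9α in 5637 cells, where it rose (log2 fold change 0.23 ± 0.03 SE, adjusted p = 9.84e-07). GNPTAB, a subunit of the enzyme that adds the tag, went the other way, up in CAL-29 cells (0.37 ± 0.05) and down in 5637 cells (-0.32 ± 0.04). The coat adaptor GGA2 fell in both, with log2 fold changes of -1.15 ± 0.06 and -0.97 ± 0.04. Without siCtrl library 2 or siKMT9α library 1, 2 or 3, M6PR lost its call in CAL-29 cells (0.36, 0.36, 0.34 and 0.35), and GNPTAB lost it without siCtrl library 2 or siKMT9α library 2 or 3 (0.37, 0.36 and 0.35). IGF2R lost its 5637 call without siCtrl library 1 or 3 or siKMT9α library 1 or 3 (0.23, 0.21, 0.20 and 0.22).

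In the list of cathepsin inhibitors, 2 of 7 genes tested were up and 1 down in CAL-29 cells, or 42.9% beside 30.0% of all genes. In 5637 cells 2 of 8 were up and 3 down, or 62.5% beside 35.6%. The 3 that fell in 5637 cells were the cystatins CST3 and CST6 and, named here after its values were seen, CD74, the invariant chain. CSTA measured 26.0, 30.6 and 31.2 CPM with siCtrl and 93.5, 97.7 and 90.7 CPM with siKMT9α in CAL-29 cells and 30.1, 36.2 and 31.6 CPM with siCtrl and 59.3, 57.4 and 55.9 CPM with siKMT9α in 5637 cells, and was upregulated in both (1.68 ± 0.06 and 0.82 ± 0.05). CST6 measured 144, 140.0 and 148 CPM with siCtrl and 68.5, 68.1 and 64.4 CPM with siKMT9α in CAL-29 cells and 82.1, 82.3 and 82.6 CPM with siCtrl and 15.1, 16.5 and 18.7 CPM with siKMT9α in 5637 cells, and was downregulated in both (-1.10 ± 0.05 and -2.29 ± 0.06). CST3, the secreted cystatin C, fell in 5637 cells (-0.56 ± 0.04) and was at 0.06 ± 0.04 in CAL-29 cells. CSTB rose in both (0.56 ± 0.07 and 0.25 ± 0.04). Without 1 library the CSTB call was lost in CAL-29 cells for siCtrl library 2 (0.61) and siKMT9α library 2 (0.57) or 3 (0.54), and in 5637 cells for siCtrl library 1 (0.24), 2 (0.24) or 3 (0.28) and siKMT9α library 2 (0.20) or 3 (0.27).

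In the list of MiT/TFE factors and their control at the lysosome, 2 of 19 were up and 5 down in CAL-29 cells (36.8% called). In 5637 cells 4 were up and 4 down (42.1%). Of all genes, 30.0% and 35.6% were called. LAMTOR1, the anchor that holds the mTORC1 platform on the lysosome, measured 13.4, 14.8 and 14.6 CPM with siCtrl and 43.0, 44.2 and 43.7 CPM with siKMT9α in CAL-29 cells and 25.6, 27.9 and 27.4 CPM with siCtrl and 78.2, 82.4 and 81.1 CPM with siKMT9α in 5637 cells. It rose in both lines, by 1.61 ± 0.07 (adjusted p = 1.76e-14) and 1.58 ± 0.05 (adjusted p = 5.08e-22). RPTOR, the mTORC1 subunit that docks there, rose by 0.93 ± 0.06 and 1.01 ± 0.04. Of the autophagy genes, 0 of 28 were up in CAL-29 cells by edgeR at p below 1e-06, beside 5 at an unadjusted p below 0.05 and 0 by DESeq2. In the downward direction 8 were called there, and 3 of 26 were up and 7 down in 5637 cells. These calls are 28.6% of the autophagy genes in CAL-29 and 38.5% in 5637 cells, beside 30.0% and 35.6% of all genes. The autophagosome protein gene MAP1LC3B measured 94.7, 101 and 103 CPM with siCtrl and 49.8, 47.8 and 46.6 CPM with siKMT9α in CAL-29 cells and 42.4, 45.0 and 43.4 CPM with siCtrl and 25.4, 24.8 and 24.6 CPM with siKMT9α in 5637 cells (-1.05 ± 0.05 and -0.81 ± 0.05, downregulated in both), and the fusion factor VPS33A was downregulated at -0.72 ± 0.06 and -0.87 ± 0.05. The cargo receptor SQSTM1 passed in neither line (0.16 ± 0.05 and 0.15 ± 0.03), but did in 5637 cells without siKMT9α library 1 (0.19).

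Genes of the proton pump and of other membrane proteins were called in both directions. Their shares stand beside 30.0% of all genes called in CAL-29 and 35.6% in 5637 cells. Of the V-ATPase genes, 1 of 21 was up and 4 were down in CAL-29 cells (23.8% called). In 5637 cells 3 of 19 were up and 6 down (47.4%). The pump subunit genes ATP6V1C1, at -0.35 ± 0.05 and -0.65 ± 0.05, and ATP6V1C2, at -0.46 ± 0.05 and -0.40 ± 0.04, fell in both lines. Of the other membrane and transport genes, 3 of 25 were up and 4 down in CAL-29 cells (28% called). In 5637 cells 4 of 24 were up and 7 down (45.8%). LAPTM4A fell in both lines, with log2 fold changes of -0.47 ± 0.05 and -0.25 ± 0.03. The cholesterol exporter NPC1 rose in 5637 cells (0.35 ± 0.04) and its soluble partner NPC2 fell there (-0.41 ± 0.03), and neither passed in CAL-29 cells (0.05 ± 0.05 and -0.13 ± 0.05). GPNMB measured 379, 364 and 354 CPM with siCtrl and 273, 284 and 288 CPM with siKMT9α in CAL-29 cells (downregulated, -0.38 ± 0.05) and at most 0.332 CPM in 5637 cells, where it was not tested. ATP6V1C1 lost its CAL-29 call when any 1 library but siCtrl library 1 was left out, at log2 fold changes between -0.37 and -0.32, GPNMB without any 1 but siCtrl library 1 or 3, at values between -0.39 and -0.35, ATP6V1C2 without siKMT9α library 3 (-0.45), and LAPTM4A its 5637 call without siKMT9α library 3 (-0.24).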

How the data were processed

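Per the labels and the study's methods, the authors mapped the reads with STAR to hg19 (GRCh37), counted them with HOMER and tested them with edgeR. The authors deposited estimated counts for 37400 RefSeq transcripts with 23064 symbols, in steps of 0.5, with 36.6% of values in 5637 and 37.9% in CAL-29 not whole, and these were rounded. Their columns of p-values, adjusted p-values and log2 fold changes were not used. Strandedness is not given in the sources used here.

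The transcript with the most counts stood for each symbol, and it differed between lines for 3 members, CTSA, LIPA and TFEB. In each line, siKMT9α was compared with siCtrl (3 libraries each) with edgeR 4.0.16 (R 4.3.3), with filterByExpr, TMM scaling and the quasi-likelihood F test. Calls required an unadjusted p below 1e-06, as in the study, and Benjamini-Hochberg adjusted p-values over all genes tested stand beside it. Differences between lines came from a joint model of 12 libraries. Errors are SE for fold changes and SD for levels, and counting depth was that of the totals given above. The method was checked on simulated counts. Alternatives were DESeq2 1.42.0, other scalings, filters and thresholds, summed transcripts, a replicate block and each library left out.

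Members and lists were chosen with earlier results of these data known. Named beside the 40 members were N6AMT1, TRMT112, up to 2 genes of each other list with the largest change (the smaller of both lines) among those past the threshold in both lines, and 14 genes by name. A few genes that this rule names are not reported here. Gene and 3′ UTR annotation was GENCODE on GRCh37, and promoters were from RefSeq on GRCh38.p14.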

Additional observations from a re-analysis of the deposited data

Results flagged for a closer look

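The siKMT9α response differed between the lines past p below 1e-06 in the joint edgeR model for 9 members and for 6 of the other genes named here. Each value is the log2 response in 5637 minus that in CAL-29 cells. Among the cathepsins it was -1.99 for CTSS, -0.99 for CTSF and -0.71 for CTSC. Among the glycosidases it was -0.78 for FUCA1, -0.71 for GUSB and -0.52 for NAGLU, a gene called in neither line on its own. It was -1.23 for PPT1, -0.64 for SCARB2 and -0.53 for ASAH1. Of the other genes, the cystatins stood at -1.20 for CST6, -0.88 for CSTA and -0.64 for CST3, and the subunit of the tagging enzyme GNPTAB stood at -0.71. The 2 with a higher response in 5637 cells were IGF2R at 0.83 and TFE3 at 0.53. The direction held in each of these 15 when any 1 library was left out, and the lines also differed in transfection reagent, siRNA dose and medium, which cannot be told apart from the line.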

How the results depend on the processing

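Of 640 fold changes of the 40 members recomputed under other scalings, filters, tools or models, 598 kept their direction and their side of the threshold, 19 lost and 13 gained a call and 10 turned sign, and of 480 with 1 library left out these counts were 434, 36, 4 and 6. No fold change that turned sign was a call. These were, in CAL-29 cells, CTSH (0.0057), GLB1 (0.023), SGSH (0.032) and LIPA (0.0091) with total-count scaling, and GALNS with total-count scaling (0.080), DESeq2 (0.0097), no filter (0.0066), summed transcripts (0.0029) and the joint model (0.018). CTSC turned to 0.14 in 5637 cells with summed transcripts. With 1 library left out, GALNS ran from -0.053 to 0.054, SGSH from -0.098 to 0.040 and LIPA from -0.10 to 0.0056 in CAL-29 cells. MITF, not a member, ran from -0.15 to 0.17 in 5637 cells. Of 63 differences between the lines for the 9 members under other settings, 60 kept their call, and with summed transcripts CTSC (-0.37), CTSF (-0.97) and NAGLU (-0.51) lost it. CTSF, NAGLU and GALNS have 1 transcript row each, so summing left their own counts unchanged and altered only the fit over all genes. Among the other genes, the difference for TFE3 lost its call with total-count scaling (0.41).

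At an adjusted p below 0.05 the counts were 19 members down in CAL-29 cells, 10 up in 5637 cells, 34 up and 67 down of the other lists in CAL-29 cells, 40 up and 66 down of them in 5637 cells, and 23 members that differed between the lines. The other lists had 140 genes tested for CAL-29 and 135 for 5637. Of all genes tested, this rule passed 34.3% upwards and 35.2% downwards for CAL-29, and 35.1% upwards and 35.6% downwards for 5637. The lines differed for 50.4% of all genes. With a log2 fold change of at least 1 required as well, 2 members were up and 2 down in CAL-29 cells, 0 up and 3 down in 5637 cells, the other lists held 4 up and 10 down in CAL-29 and 3 up and 7 down in 5637 cells, and 2 members differed between the lines. Against a 1.5-fold difference (glmTreat) 3 differed. The share of all genes that passes either of these stricter rules is not given, so these counts cannot be set against it. Members up in 5637 cells, 4 in the report, numbered 1 with summed transcripts and 2 with total-count scaling, upper quartile scaling or the joint model. Over all genes, calls up in 5637 cells went from 2581 to 1869 with summed transcripts, 2102 with total-count and 2230 with upper quartile scaling. Of the other lists, 11 genes up in CAL-29 cells became 19 with no filter, 7 with summed transcripts and 17 with the joint model, and 21 up in 5637 cells became 12 with summed transcripts.

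With 1 library left out, members down in CAL-29 cells ranged from 5 to 10 and members up in 5637 cells from 2 to 4, while genes of the other lists in CAL-29 cells ranged from 6 to 17 up and from 19 to 45 down. The share of all genes called in these smaller fits is not given, so these ranges cannot be set against it. Deviations of same-numbered libraries correlated between -0.0134 and 0.0819, and those of differently numbered libraries between -0.0781 and 0.0386. With 3 libraries per group these values cannot decide whether same-numbered libraries were paired. Without a replicate block, calls over all genes were 2194 up and 2208 down in CAL-29 and 2581 up and 2523 down in 5637 cells. With the replicate block, calls over all genes were 3177 up and 3150 down in CAL-29 and 2748 up and 2630 down in 5637 cells, the members numbered 10 up and 11 down and 5 up and 17 down, and the other lists held 20 up in CAL-29 cells. Depth limits low transcripts most, and CTSK had the widest error of the members in both lines.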
